A study of Mus musculus with 12 samples.

Results

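Kupffer cells are the macrophages that live in the liver sinusoids, and 10 genes that mark them were followed here in liver RNA of mice given low-dose penicillin and of untreated mice. The genes were taken as a list: Clec4f, Vsig4, Cd5l, Marco and Timd4, which in mouse liver are largely restricted to Kupffer cells, and Adgre1, Cd68, Csf1r, Cd163 and Lyz2, which other macrophages or myeloid cells share. Each gene was represented by the brightest of the array features (probesets) annotated to that gene alone. In all, 13 probesets named the 10 genes, 3 of them Csf1r and 2 Marco. The 10 genes were among 11899 genes tested, and 10 of 10 passed the filter on dim probesets.

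The samples were livers of 12 male C57BL/6 mice obtained from Jackson Labs, 1 Affymetrix array per mouse. Of these, 6 mice drank water with low-dose penicillin and 6 received no antibiotic, with livers taken after 7 weeks. Per the series' design text, the antibiotic began after weaning. The sources used here do not give the dose, the cages or the ages in days, and mice that shared a cage would not be independent.

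Kupffer cells line the blood vessels through which portal blood from the gut passes, and they take up bacteria, complement-coated particles, dying cells and free haemoglobin. They depend on signalling through the receptor Csf1r and on transcription factors that include PU.1 (Spi1) and the oxysterol receptor LXR-alpha (Nr1h3). In whole liver they are a minority beside hepatocytes, so their RNA is read here through a small set of genes. In such bulk samples, fewer cells of a type and less RNA per cell cannot be told apart.

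The promoters of 5 members are shown: 4 Kupffer-restricted genes and Lyz2, the member with the smallest p. Each line gives the 250 bases before the gene's start on the gene's own strand, from RefSeq on build GRCm38.p6. Capitals mark GAGGAA, a core of PU.1 sites, or TTCCTC, the same letters on the other strand.
Clec4f promoter, chr6:83656117-83656366, minus strand: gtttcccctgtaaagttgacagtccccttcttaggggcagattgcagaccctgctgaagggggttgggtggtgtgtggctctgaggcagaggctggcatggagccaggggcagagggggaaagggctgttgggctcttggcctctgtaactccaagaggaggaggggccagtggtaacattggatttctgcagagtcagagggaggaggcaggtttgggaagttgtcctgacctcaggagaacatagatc
Vsig4 promoter, chrX:96293439-96293688, minus strand: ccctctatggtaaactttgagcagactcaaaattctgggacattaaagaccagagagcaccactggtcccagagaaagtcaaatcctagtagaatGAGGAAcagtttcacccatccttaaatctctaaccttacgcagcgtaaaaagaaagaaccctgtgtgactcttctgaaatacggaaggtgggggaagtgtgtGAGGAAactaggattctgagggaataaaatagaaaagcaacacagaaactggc
Cd5l promoter, chr3:87357631-87357880, plus strand: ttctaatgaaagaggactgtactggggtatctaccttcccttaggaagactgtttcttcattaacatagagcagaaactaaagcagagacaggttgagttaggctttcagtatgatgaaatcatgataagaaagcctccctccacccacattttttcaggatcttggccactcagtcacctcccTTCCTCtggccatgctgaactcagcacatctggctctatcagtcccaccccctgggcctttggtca
Marco promoter, chr1:120505025-120505274, minus strand: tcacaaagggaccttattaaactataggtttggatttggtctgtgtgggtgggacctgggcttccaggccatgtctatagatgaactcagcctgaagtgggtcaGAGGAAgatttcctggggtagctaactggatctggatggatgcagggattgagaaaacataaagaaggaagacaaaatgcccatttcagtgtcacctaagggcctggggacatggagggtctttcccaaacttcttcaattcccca
Lyz2 promoter, chr10:117282273-117282522, minus strand: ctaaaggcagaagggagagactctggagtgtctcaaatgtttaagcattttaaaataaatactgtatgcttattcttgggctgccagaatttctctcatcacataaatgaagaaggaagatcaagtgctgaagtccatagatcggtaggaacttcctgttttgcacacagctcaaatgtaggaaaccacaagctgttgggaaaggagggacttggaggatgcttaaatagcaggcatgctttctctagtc
Windows of 8 members were in the table searched. Timd4, the remaining Kupffer-restricted gene, was among them and held 0 matches of GAGGAA, but its window is not printed. Whether these letters bear on the levels of the genes was not tested. GAGGAA, on either strand, was found in 4 of the 8 (Marco, Cd5l, Cd68 and Vsig4), against 23.3% of 32851 promoter windows of the same length. Vsig4 held it at 2 places, starting 155 and 53 bases before the gene's start. Cd68 alone of the 8 held the AP-1 letters TGANTCA (6.75% of all windows) and the C/EBP letters TTGCNNAA (9.56%). The E-box CACGTG (6.02%) and TATAAA (12.4%) were in 0 of the 8. The searches took both strands, and these are matches of letters only.

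Some arrays stood apart from the rest of their group before any marker was compared. Over the 10 acute phase genes listed, which liver makes in inflammation, control 6 lay 2.17 above the mean of all arrays on the log2 scale, against -0.32 to 0.08 in penicillin livers and -0.55 to 0.31 in the other controls. Over 14 immediate early genes, control 1, control 3 and control 5 lay at 2.21, 2.27 and 1.55, against -0.93 to -0.56 in penicillin livers and -0.86 to -0.22 in the other controls. Across genes, the correlation between arrays was 0.980 to 0.997. All 9 hepatocyte markers measured were above the filter. Their summed intensity was 153972 to 164229 in penicillin livers and 158780 to 165982 in controls. No other tissue was among the arrays, so these values describe the livers and do not test the tissue label. None of the 10 macrophage genes passed in the comparison of penicillin with control.

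Clec4f, a C-type lectin receptor of mouse Kupffer cells, had a lowest, median and highest log2 intensity of 9.63, 9.73 and 9.86 in penicillin livers, against 9.62, 9.86 and 10.16 in controls. All 6 penicillin arrays lay inside the control range, and the 2 controls above every penicillin array were control 2 (10.03) and control 6 (10.16). The difference was -0.15 (SE 0.08, 95% interval -0.33 to 0.03; limma adjusted p = 0.699). When 1 array was left out, it ran from -0.20 without control 4 to -0.096 without control 6. Without control 4, the limma p of Clec4f was 0.0214 unadjusted and 0.467 adjusted.

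Vsig4 encodes CRIg, a receptor for complement C3 fragments that captures bacteria from blood. Its lowest, median and highest log2 intensities were 10.07, 10.31 and 10.48 in penicillin livers and 10.21, 10.32 and 10.72 in controls. The group medians nearly coincided, and penicillin 3 lay below all controls. The difference of the means was -0.07 (95% interval -0.28 to 0.13; limma adjusted p = 0.898), -0.0076 without control 6 and -0.026 without penicillin 3.

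Cd5l encodes a secreted scavenger protein that macrophages make under LXR control. It stood at 10.81, 10.98 and 11.23 (lowest, median and highest log2 intensity) in penicillin livers, against 10.70, 10.88 and 11.42 in controls. The penicillin arrays all lay inside the control range, whose top was control 6 and whose bottom was control 3 (10.70) and control 1 (10.77). The difference was 0.03 (95% interval -0.22 to 0.29; limma adjusted p = 0.967), and -0.0069 without control 1, -0.021 without control 3, -0.0033 without control 4 and -0.013 without penicillin 6.

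Marco, a scavenger receptor for bacteria and particles, varied most among the members. Its lowest, median and highest log2 intensities were 6.69, 7.10 and 7.84 in penicillin livers and 6.72, 7.51 and 8.02 in controls. Penicillin 3, penicillin 4 and penicillin 5 lay between 6.69 and 6.81, beside control 4 at 6.72, while the other 8 arrays lay at 7.39 or above. The SD was 0.53 in penicillin livers and 0.43 in controls (n = 6 each), and 96.8% of all genes tested had a smaller spread within groups. The difference was -0.28 (95% interval -0.81 to 0.26; limma adjusted p = 0.835), and between -0.43 and -0.17 when 1 array was left out. The dimmer Marco probeset gave -0.25 and put penicillin 3 and control 4 lowest in their groups.

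Timd4, a receptor for phosphatidylserine on dying cells that marks long-resident Kupffer cells, leaned the other way. It stood at 6.65, 7.08 and 7.19 (lowest, median and highest log2 intensity) in penicillin livers, against 6.72, 6.78 and 7.43 in controls. In 5 of 6 controls it was at 6.94 or below, while 4 of 6 penicillin arrays were at 7.04 or above, and control 6 was the highest of all. The difference was 0.09 (95% interval -0.19 to 0.38; limma adjusted p = 0.908), 0.20 without control 6 and -0.035 without control 1, control 3 and control 5.

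Among the genes shared with other macrophages, Lyz2 alone had a 95% interval on 1 side of 0, and it did not pass either. Adgre1, which encodes the classic macrophage antigen F4/80, averaged 8.04 ± 0.14 in penicillin livers and 8.15 ± 0.16 in controls (log2 intensity, SD, n = 6 each), a difference of -0.11 (95% interval -0.29 to 0.07), or -0.055 without control 2. Cd68, a glycoprotein of macrophage lysosomes, averaged 7.35 ± 0.17 in penicillin livers and 7.42 ± 0.23 in controls. Its medians were 7.35 in both groups, and the difference of -0.07 (95% interval -0.31 to 0.16) was 0.0048 without control 6. Limma adjusted p-values were 0.797 for Adgre1 and 0.918 for Cd68.

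Csf1r, the receptor of the macrophage growth factors Csf1 and Il34, stood at 10.90, 11.14 and 11.21 (lowest, median and highest log2 intensity) in penicillin livers, against 10.91, 11.05 and 11.39 in controls. The penicillin arrays lay within the control range but for penicillin 3. The difference was -0.024 (95% interval -0.23 to 0.18; limma adjusted p = 0.969), and the dimmer Csf1r probesets gave -0.052 and 0.0024. It was 0.022 without control 2, 0.032 without control 6 and 0.014 without penicillin 3.

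Cd163, the receptor that clears haemoglobin bound to haptoglobin, spread widely among the controls. It stood at 7.43, 7.70 and 7.997 (lowest, median and highest log2 intensity) in penicillin livers, against 7.32, 7.87 and 8.58 in controls. Control 6 held the highest value and control 1 and control 3 (7.32 and 7.39) the lowest of all arrays. The SD was 0.22 in penicillin livers and 0.46 in controls (n = 6 each). The difference was -0.13 (95% interval -0.53 to 0.27; limma adjusted p = 0.907), 0.016 without control 6 and -0.44 without control 1, control 3 and control 5.

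Lyz2, the lysozyme of macrophages and other myeloid cells, had the smallest p among the members. Its log2 intensities were 10.10, 10.31, 9.95, 10.09, 10.07 and 10.29 in penicillin 1 to 6, against 10.38, 10.41, 10.32, 10.16, 10.33 and 10.62 in control 1 to 6. All 6 penicillin arrays lay below the control median and 4 lay below every control, but control 4 was lower than penicillin 2 and penicillin 6, so the groups overlapped. Lyz2 averaged 10.14 ± 0.14 in penicillin livers and 10.37 ± 0.15 in controls (SD, n = 6 each), a difference of -0.23 (SE 0.08, 95% interval -0.41 to -0.05) or 1.17-fold. It did not pass (unadjusted p = 0.0151 and adjusted p = 0.570 in limma over all genes; adjusted p from 0.332 to 0.997 over the alternatives).

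**Figure D1:**
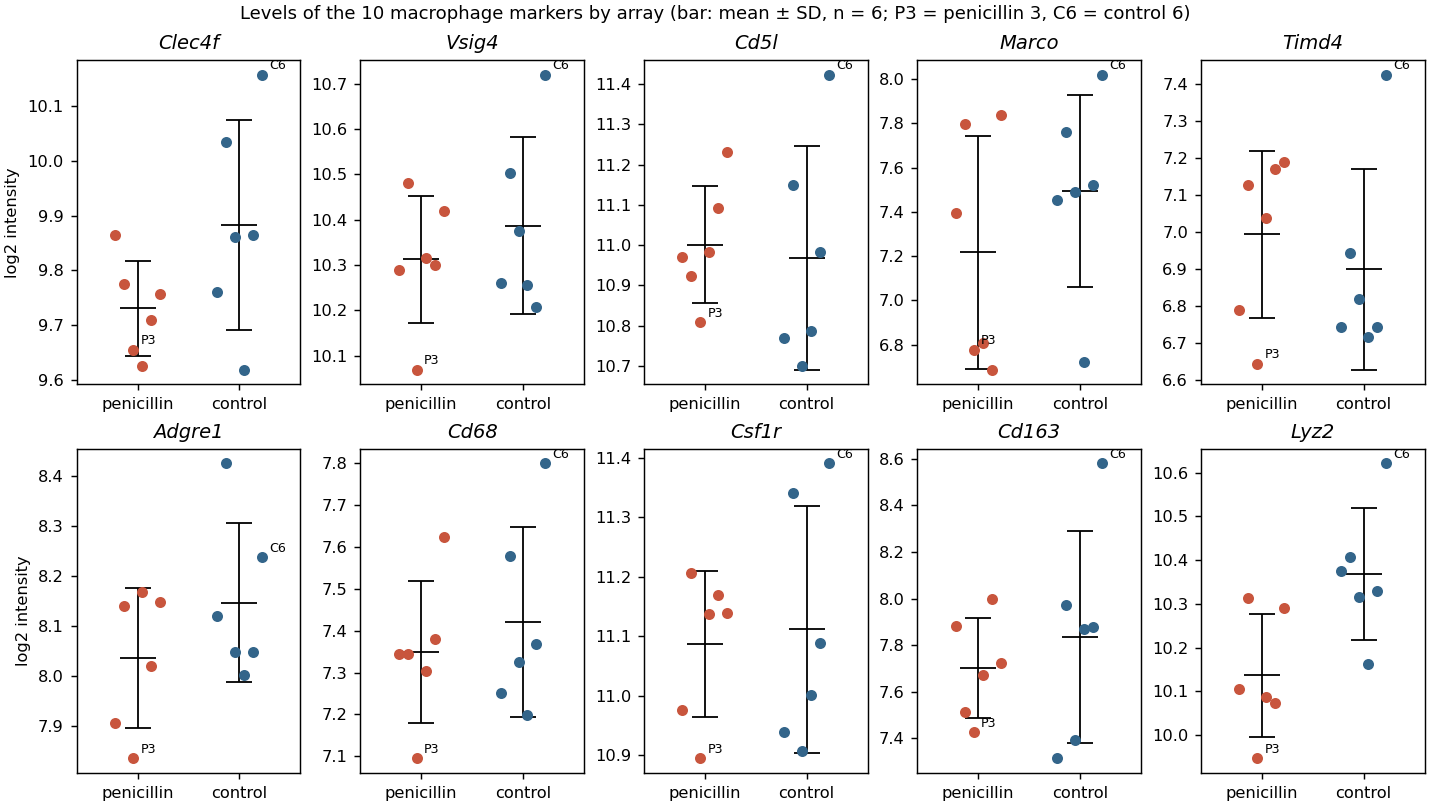
Log2 intensity (vertical axes, a separate scale for each gene) of the 10 markers in 6 penicillin and 6 control livers. Each point is 1 array, in order of mouse number from left to right within a group, bars are mean ± SD, and P3 and C6 mark penicillin 3 and control 6. Penicillin and control points overlap for every gene, and C6 is the highest point in 9 of 10 panels.

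Neutrophils also make lysozyme, and their markers are given here for the same groups, with 0 of 4 tested called. S100a9, a neutrophil calcium-binding protein, averaged 5.42 ± 0.38 in penicillin livers and 7.06 ± 0.90 in controls (log2 intensity, SD, n = 6 each), a difference of -1.63 (limma adjusted p = 0.299). Its partner S100a8 differed by -1.94 (adjusted p = 0.304), at 4.74 ± 0.64 in penicillin livers and 6.68 ± 0.99 in controls. Of 12 neutrophil markers listed, 10 were measured and 4 passed the filter, all 4 of them lower. S100a8 and S100a9 had the largest differences of the 4, whose median was -0.94. Without control 4, 3 of the 4 were lower and 1 was higher. The summed intensity of the 10 was 234 to 285 in penicillin livers and 306 to 878 in controls. No marker had a value of 0, but 6 of the 10, among them Mpo, Elane and Ltf, were under the filter. The part of neutrophils in the Lyz2 difference was not tested. Lyz1, a lysozyme gene closely related to Lyz2, differed by -0.22 (95% interval -0.44 to 0.01; limma adjusted p = 0.648). Probes of either gene may read RNA of the other.

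Counted together, 8 members were lower and 2 higher in penicillin livers, beside 47.2% of all genes tested being lower. The median difference of the 10 was -0.09 on the log2 scale, against 0.0064 over all genes, whose median absolute difference was 0.07. Limma called 0 of the 10 with p adjusted over all genes, as it called 0% of all genes tested (0 of 11899, smallest adjusted p = 0.265). The ordinary linear model without limma's variance prior also called 0. At an unadjusted p under 0.05 there was 1 member, Lyz2, with either method, beside 7.98% of all genes with limma (3.66% as lower) and 7.53% with the ordinary model. The groups were separate for 0 of the 10, beside 0.412% of all genes. Members measured on the same mice are not independent of each other.

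Among omissions of 1 array, that of control 6 moved the lean toward lower values most. Without control 6, 5 of 10 members were lower and 5 higher, with a median difference of -0.0014 and 46.3% of all genes lower. The Kupffer-restricted members stayed at 3 lower and 2 higher, while the shared members went from 5 lower to 2 lower and 3 higher. The median of the 10 was -0.053 without control 2 and -0.048 without penicillin 3. Without control 1, control 3 and control 5, the arrays high in immediate early genes, 10 of 10 were lower with a median of -0.18, and 53.1% of all genes were lower. Limma called 0 members in each of these cases. The controls left in that comparison were control 2, control 4 and control 6. Averaged over the 10 members, these lay at 0.21, -0.17 and 0.43 from the mean of all arrays. Control 1, control 3 and control 5 lay at -0.11, -0.08 and -0.0004, so their omission gave control 6 more weight. Without control 6, penicillin 1, penicillin 5 and penicillin 6, which earlier results had set apart by their clock genes, 7 of 10 were lower, with a median of -0.09.

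**Figure D2:**
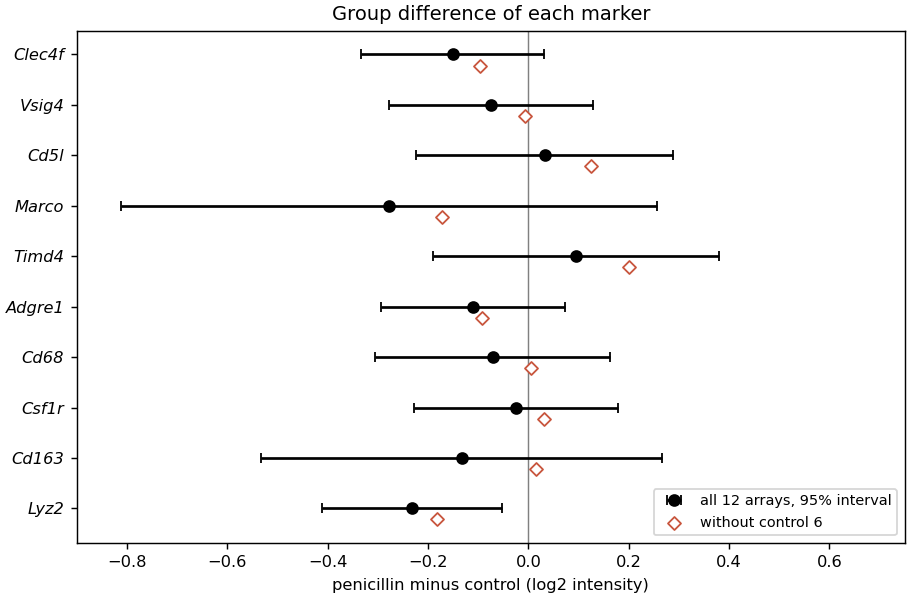
Penicillin minus control in log2 intensity (horizontal axis) for each of the 10 markers (rows). Filled points are estimates from all 12 arrays with 95% intervals, and open diamonds are the estimates without control 6. Of the 10 intervals, that of Lyz2 alone does not cross 0, and without control 6 the diamonds lie on both sides of 0.

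What the members shared was their variation between mice. By the brightest probesets, control 6 was the highest of the 12 arrays for 9 of 10 members and second for Adgre1, where control 2 was highest. Penicillin 3 was below the mean for 10 of 10 members, the lowest array for 6, and among the 3 lowest for 9. The dimmer Csf1r probesets differed: control 2 was highest in them, at 9.10 and 8.33, against 9.02 and 8.05 in control 6. Their lowest arrays were penicillin 4 (8.62) and control 4 (7.90), not penicillin 3. Averaged over the 10 genes, control 6 lay 0.43 above the mean of all arrays on the log2 scale, control 2 0.21 above, penicillin 6 0.13 above, control 4 at -0.17 and penicillin 3 at -0.29.

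**Figure D3:**
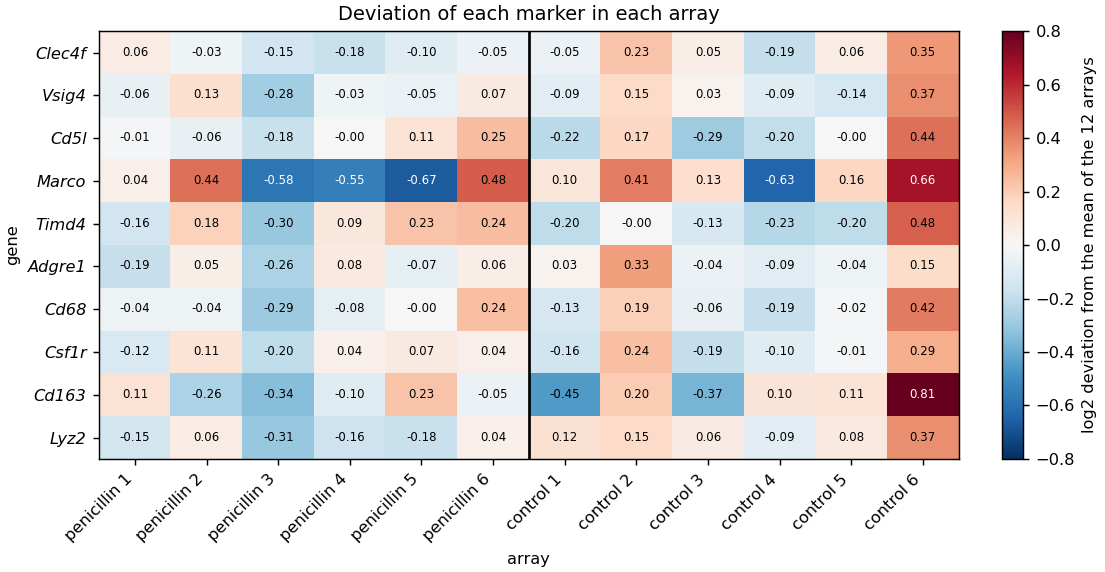
Log2 deviation of each of the 10 markers (rows) from its mean over 12 arrays (columns, penicillin left of the line, control right). Red cells are above the mean and blue cells below. The column of control 6 is red throughout, at 0.43 on average, and that of penicillin 3 blue throughout, at -0.29 on average.

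With group means removed, all 45 pairs of members correlated positively over the 12 arrays, with a median Pearson's r of 0.727 (0.195 to 0.938). Each member's median r to all other genes tested was between -0.027 and 0.070. Of the 45 pairs, 32 passed at an adjusted permutation p under 0.05 with Pearson's r, and 23 passed with both Pearson's r and Spearman's rho (permutations within groups, Benjamini-Hochberg over the 45 pairs). The median r was 0.566 within the 6 penicillin arrays and 0.821 within the 6 control arrays. It was 0.661 without control 6, with 43 of 45 pairs above 0, and 0.602 after leaving out, for each pair, the 2 arrays farthest from the median of the first gene. Pairs of Kupffer-restricted genes had a median r of 0.741, pairs of shared genes 0.708 and mixed pairs 0.727. The points share arrays and normalization.

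Cd5l and Cd68 gave the highest correlation, between a secreted protein and a lysosomal one. Their r was 0.938 (permutation p = 1.8e-04, adjusted p = 0.00304) and rho 0.874 (permutation p = 2.9e-04, adjusted p = 0.00675), with r = 0.953 without the 2 farthest arrays and 0.947 in penicillin and 0.951 in control livers. Vsig4 and Timd4 followed at r = 0.906 (permutation p = 2.7e-04, adjusted p = 0.00304) and rho = 0.841 (permutation p = 7.6e-04, adjusted p = 0.0114), with r = 0.651 without the 2 farthest arrays. Marco and Lyz2 reached r = 0.898 (permutation p = 2e-04, adjusted p = 0.00304) and rho = 0.909 (permutation p = 3e-04, adjusted p = 0.00675), with 0.894 without the 2 farthest arrays. These pairs held within both groups, at 0.824 in penicillin and 0.958 in control livers for Vsig4 with Timd4, and at 0.889 in penicillin and 0.924 in control livers for Marco with Lyz2.

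Cd163 had its lowest correlations with Marco, Adgre1 and Lyz2. Its r was 0.195 with Marco (permutation p = 0.538, adjusted p = 0.538; rho = 0.147, permutation p = 0.656, adjusted p = 0.656), 0.298 with Adgre1 (permutation p = 0.401, adjusted p = 0.410; rho = 0.182, permutation p = 0.581, adjusted p = 0.595) and 0.392 with Lyz2 (permutation p = 0.24, adjusted p = 0.251; rho = 0.189, permutation p = 0.582, adjusted p = 0.595). Without the 2 farthest arrays these were 0.454, 0.153 and 0.017. With Cd5l it was 0.853 (permutation p = 0.00199, adjusted p = 0.00847; rho = 0.783, permutation p = 0.00744, adjusted p = 0.0258), and 0.637 without the 2 farthest arrays. Cd163 and Cd5l were both lowest in control 1 and control 3, whose immediate early genes were high. Whether these r values differ from each other was not tested. Several correlations of Clec4f rested on control 2 and control 6: without these, r was 0.090 for Timd4 and -0.0017 for Csf1r, against 0.607 (permutation p = 0.0554, adjusted p = 0.0733; rho = 0.508, permutation p = 0.0863, adjusted p = 0.118) and 0.653 (permutation p = 0.0598, adjusted p = 0.0769; rho = 0.650, permutation p = 0.0482, adjusted p = 0.0700) over all 12 arrays.

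**Figure D4:**
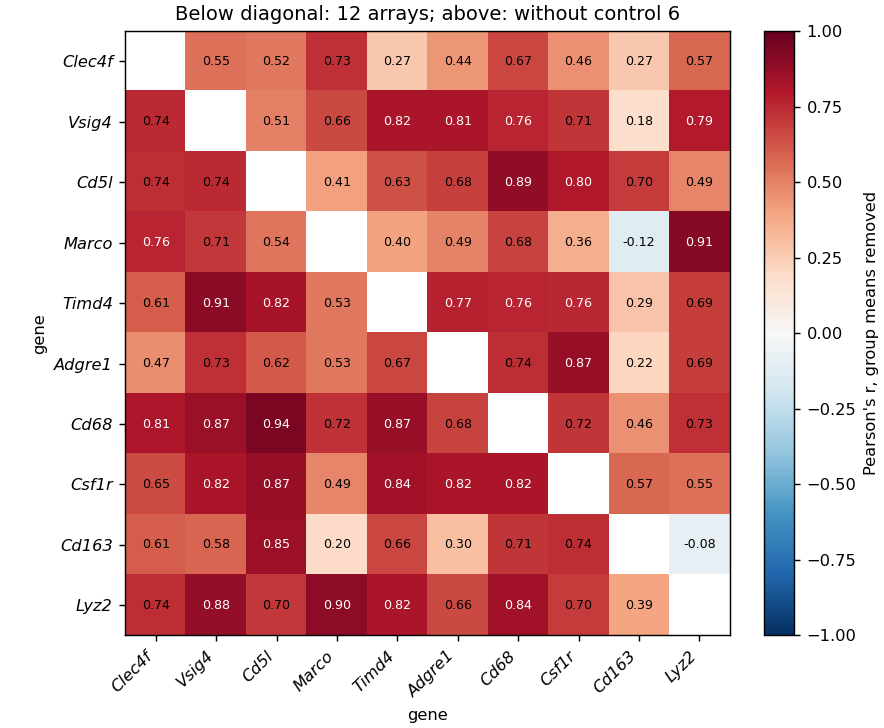
Pearson's r between the 10 markers (rows and columns) over arrays with group means removed, below the diagonal for 12 arrays and above it without control 6. Red is positive and blue negative. All 45 values below the diagonal are positive, and 43 of 45 above it.

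The genes most like Clec4f, by Pearson's r over the 12 arrays with group means removed, were Prodh (0.923), C1qc (0.911), Slc25a1 (0.901), Ms4a6c (0.891) and Sh3bgrl3 (0.876). C1qc is a subunit of complement C1q that macrophages make, Ms4a6c a membrane protein of myeloid cells, Prodh a mitochondrial proline dehydrogenase and Slc25a1 the mitochondrial citrate carrier. The genes most like the mean of the 5 Kupffer-restricted members were Plekho1 (0.940), Wfdc17 (0.929), Aldoc (0.928), Dhtkd1 (0.916) and Asah1, an acid ceramidase (0.914). These genes were picked from all others tested by their r, which describes the choice. None of them passed between the groups, with limma adjusted p of 0.594 to 0.974. The Kupffer-restricted mean was taken over unscaled log2 values, so Marco weighed most in it. The SD of Marco within groups was 0.48, against 0.15 to 0.25 for the other Kupffer-restricted members.

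Other Kupffer cell and macrophage genes gave small differences of the same kind. Of 10 further Kupffer cell genes, 7 were lower and 3 higher in penicillin livers, with 0 called and a median difference of -0.09 on the log2 scale. Without control 6 the counts stayed at 7 lower and 3 higher, with a median of -0.023. Hmox1, which breaks down haem, differed by -0.33 (limma adjusted p = 0.632), at 7.09 ± 0.07 in penicillin livers and 7.42 ± 0.41 in controls (SD, n = 6 each), and the macrophage transcription factor Spic by -0.24 (adjusted p = 0.659). The lectin-like receptor Clec1b and the folate receptor Folr2 differed by -0.11 and -0.10. Of 20 genes common to macrophages, 17 were lower and 3 higher, with 0 called and a median of -0.07, and without control 6 the numbers were 11 lower and 9 higher, with a median of -0.0039. C1qa, another subunit of C1q, differed by -0.07, the Fc receptor Fcgr1 by -0.20 (adjusted p = 0.674), the mannose receptor Mrc1 by -0.13 and Mpeg1, which encodes perforin-2, by 0.10.

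Among regulators of these cells 0 genes were called, though Id1 and Lpcat3 differed by more than any member. The values are of whole liver and not of macrophages alone. Of 11 macrophage transcription factors measured, 6 were lower and 5 higher, with 0 called, and without control 6 the numbers were 4 lower and 7 higher. Spi1 differed by 0.016 (95% interval -0.13 to 0.16), Nr1h3 by 0.06 (-0.12 to 0.24), Irf8 by -0.16 and Id1, a target of BMP signals, by -0.51 (unadjusted p = 0.0463, limma adjusted p = 0.619). Of 10 growth and niche signals that passed the filter, 6 were lower and 4 higher, with 0 called. Csf1 differed by -0.20 (95% interval -0.44 to 0.04; adjusted p = 0.700) and Bmp10 by -0.12, while Il34 was under the filter. Among 8 LXR genes and targets, 4 were higher and 4 lower, with 0 called, led in opposite directions by Lpcat3, a phospholipid acyltransferase (0.33), and Mylip, a ligase that degrades lipoprotein receptors (-0.25), each at an adjusted p of 0.570.

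Among uptake receptors, 5 of 9 scavenger receptors were lower and 4 higher, with 0 called. Scarb1, a lipoprotein receptor also made by hepatocytes, differed by -0.29 and the fatty acid receptor Cd36 by 0.48, both at an adjusted p of 0.570 in limma. Of 9 genes for the uptake of dying cells, 7 were lower and 2 higher, with 0 called, led by the integrin subunit Itgb3 (-0.28, adjusted p = 0.622) and the receptor kinase Tyro3 (0.17, adjusted p = 0.647).

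Of 8 genes measured from the list of monocyte markers, 5 were under the filter and 3 passed. These were Lyz1, Ccr2, the receptor that draws monocytes into tissue (difference 0.08, 95% interval -0.09 to 0.24), and Plac8 (0.018). Itgam was among those under the filter. The summed intensity of the 8 was 2193 to 3104 in penicillin livers and 2513 to 3574 in controls. This sum includes Lyz1, whose probes may read RNA of Lyz2, so it is not a measure of monocytes alone. Among other cell types 0 genes were called. All 4 dendritic cell markers tested had higher means in penicillin livers, as had 5 of 6 T and NK cell markers. Of 10 sinusoidal endothelial markers 6 were lower, as were 4 of 4 cholangiocyte markers and 7 of 9 hepatocyte markers. Median differences were -0.08 for endothelial, -0.31 for cholangiocyte and -0.027 for hepatocyte markers. Without control 6 they were -0.080, -0.27 and -0.029 in the same order. Of 4 B cell markers 3 were lower, with a median difference of -0.06, which was 0.056 without control 6 (2 lower and 2 higher). Of 9 stellate cell markers 8 were lower, with a median of -0.19, which was -0.076 without control 6 and -0.053 without penicillin 1. Stellate cell markers were highest in control 2 and control 6, at 0.39 and 0.29 above the mean of all arrays, and lowest in penicillin 1 and penicillin 3, at -0.47 and -0.41. The part of these other cells in the macrophage values was not tested.

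The arrays that were high or low in macrophage markers differed in other lists. The 20 genes common to macrophages lay at 0.40 in control 6 and -0.27 in penicillin 3, where the Kupffer-restricted members lay at 0.46 and -0.30. Neutrophil markers lay at 1.27 in control 6 and -0.77 in penicillin 3, and at -0.86 in penicillin 1, where the Kupffer-restricted members were near their mean at -0.027. Immediate early genes lay below the mean of all arrays in control 6 (-0.46) and penicillin 3 (-0.93), as in every array but control 1, control 3 and control 5. Control 6 lay above all penicillin arrays (-0.93 to -0.56) in these genes.

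**Figure D5:**
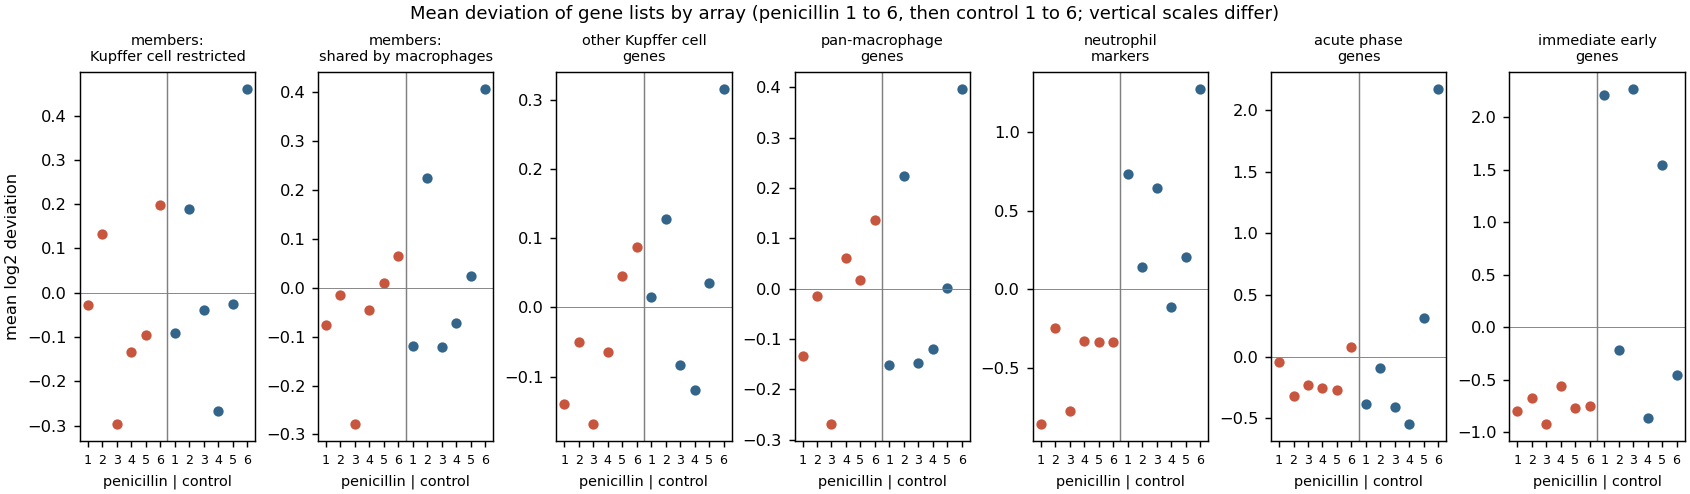
Mean log2 deviation of 7 gene lists (panels, each with its own vertical scale) from the mean of all arrays, in penicillin 1 to 6 and then control 1 to 6 (horizontal axis). Control 6 is the highest point in the 4 macrophage panels and in the neutrophil and acute phase panels (0.46 for the Kupffer-restricted members, 2.17 for acute phase genes), while control 3, control 1 and control 5 lead the immediate early panel.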

How the data were processed

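Liver RNA of 12 mice was measured on Affymetrix arrays. Per the labels' protocols, total RNA came from RNeasy columns and was labelled with a 3-prime in vitro transcription kit. The submitters' processing notes name RMA, so the deposited intensities are the authors' RMA values per probeset, here on a linear scale. RMA makes the distributions of the arrays alike, and a shift common to most genes cannot be seen. The number of arrays limits the precision, and there are no detection calls.

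The log2 of these intensities was taken. Of 45101 probesets, 64 were controls, 34945 were annotated to 1 gene, 932 to several and 9160 to none. Symbols were updated through RefSeq (GRCm38.p6). Probesets with a mean under the median (4.73) were left out, and the one with the highest mean was kept per gene. Penicillin minus control was fitted with limma 3.58.1 in R 4.3.3, with Benjamini-Hochberg adjustment over 11899 genes at 0.05. Correlations were tested with 100000 permutations within groups in Python 3.11.15. The fit was tested on simulated data. Alternatives were other filters, normalizations, probeset choices, variance priors, array weights, the replicate block and the omission of arrays. The members and gene lists were chosen with earlier results of these data known. The genes named are the members, for some of the other lists up to 2 genes of smallest p, which the rule allowed without requiring, some genes named in advance, and the 5 most like Clec4f and the 5 most like the Kupffer-restricted mean. Plac8, Mpo, Elane and Ltf were named after their values were seen.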

Additional observations from a re-analysis of the deposited data

Results flagged for a closer look

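Timd4 in control 6 lay at 7.43 in log2 intensity, far from the next control at 6.94, with a gap of 0.680 of the group's range, which is above Dixon's critical value at the 95% level. It was 1 of 20 groups of values examined (10 genes in 2 groups), and chance gives about 5% of groups such a gap. Timd4 differed by 0.20 without this array.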

How the results depend on the processing

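The count of genes called was 0 under every alternative run, as was the count of members called, and the median difference of the members stayed below 0 under all of them. It ran from -0.129 to -0.0014 when 1 array was left out, the highest value being that without control 6. The median r of the 45 pairs ran from 0.661 to 0.762 when 1 array was left out, an alternative chosen after seeing the data, and was 0.724 with group means kept. Clec4f, Vsig4, Marco, Adgre1 and Lyz2 kept their direction under all alternatives, though Vsig4 was -0.0076 without control 6 and Adgre1 -0.055 without control 2, with Lyz2 between -0.27 and -0.18 and adjusted p of 0.332 to 0.997. The others changed sign in places, all without passing: Csf1r was 0.031 with array weights, 0.022 without control 2, 0.032 without control 6, 0.014 without penicillin 3 and 0.024 without control 6, penicillin 1, penicillin 5 and penicillin 6. Cd5l was between -0.021 and 0.12 without 1 array and -0.12 without control 1, control 3 and control 5, where Timd4 was -0.035. Without control 6, Cd68 was 0.0048 and Cd163 0.016. Without 1 array, Csf1r ran from -0.065, Cd68 from -0.126 and Cd163 from -0.237 up to these values. The cause was not tested.

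With the replicate number as a block, 0 genes and 0 members were called, the median difference of the members was -0.09, and 1214 genes against 950 had an unadjusted p under 0.05. With the block, the smallest limma adjusted p was 0.073, against 0.265 without it, and the unadjusted p of Lyz2 was 0.0044. Arrays of the same number correlated at -0.255 to 0.385 and 5 of 12 arrays were closest to their own number. These values do not settle whether the numbers pair the mice.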
